A study of Homo sapiens with 2 samples.

Results

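DNA replication and S-phase genes were described as 42 genes chosen by symbol, and all 42 were found among the 58735 Ensembl genes of the count tables. They code for the proteins that license origins, unwind and copy DNA, make nucleotides and package the new DNA. The RNA came from MCF10a-Snail-ER, a derivative of a non-tumorigenic human mammary epithelial line that stably carries the epithelial repressor Snail fused to the estrogen receptor. These cells had been kept with 100 nM tamoxifen for 1 day, the treatment that starts an epithelial-to-mesenchymal transition in them. Matched polyadenylated RNA was read by Oxford Nanopore direct RNA sequencing on a MinION, in which native RNA strands are read through a pore, and by Illumina sequencing of cDNA copied from fragmented RNA (TruSeq stranded mRNA kit). There was 1 library per platform. The fusion and the treatment were the same in both, and no untreated library is among them, so what could be compared was the platforms.

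Counts summed to 403235 by Nanopore and 191741714 by Illumina, so the depths differed 476-fold. Each count stood for 2.48 CPM (counts per 1000000 counts of the library) by Nanopore and 0.00522 CPM by Illumina. All 10 of 10 markers of basal mammary epithelium (KRT5, KRT14 and TP63 among them) were detected by Nanopore. Of 12 markers of blood, endothelial and stromal cells, CD68 and DCN had 13 and 10 Nanopore counts and 10 were at 0 there. By Illumina 10 of the 12 had counts, up to 45.1 CPM for CD68 and 26.5 CPM for DCN, with PECAM1 at 5.07 CPM and COL1A1 at 4.93 CPM, and CD3E and HBB were at 0. No value has a replicate, so every interval and test covers counting error between these 2 libraries only. A bulk level combines how many cells were in S phase with how much RNA each held, and these cannot be told apart.

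Replication begins in G1, when the origin recognition complex, CDC6 and CDT1 load the ring-shaped MCM helicase onto origins. In S phase, CDC45 and GINS join the ring to form the active helicase, and the polymerases follow, held to DNA by the sliding clamp PCNA. Many of these genes are known targets of E2F transcription factors, which raise them together at the G1 to S transition, and their mRNAs are known as markers of proliferating cells.

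The choice of genes by symbol did not read promoter sequence. Many of these genes are known E2F targets, however, so a high share of E2F-type words is no independent finding. In the RefSeq promoter table (GRCh38.p14, 250 bases before to 50 after each start), 37 of the 42 genes had 50 promoters. The genes MCM4, MCM5, GINS4, RPA2 and E2F8 had no entry. An E2F-type word (TTTCCCGC, TTTCGCGC, TTTGCCGC or TTTGGCGC, on either strand) stood in 22 of the 50, or 44%, against 3.31% of all 35116 promoters and 4.11% of 21565 promoters of protein-coding genes. The NF-Y word CCAAT stood in 32 of the 50, or 64%, against 34.6% of all promoters. The word TTTGAA, part of the CHR element of genes that peak in G2 and M phase, stood in 2 of the 50, or 4%, against 15.2% of all promoters. Words overlapped each other in 6 of the 50 promoters. A match describes letters and is no evidence of binding, and the count tables hold no measurement at promoters. The 6 stretches below are shown because they hold an E2F-type word, in capitals, before the start of genes whose counts are described further on. Counted from the start, the first base of the word lay at −31 in GINS2, −35 in CDT1, −39 in TYMS, −59 in PCNA, −90 in MCM6 and −174 in MCM3, whose promoter also held the word TTTCGCGC at −4. They run 5′ to 3′ on the strand of the gene, and the MCM6 stretch holds a pair of overlapping words on opposite strands.
MCM6 (chr2:135876496-135876555, minus strand): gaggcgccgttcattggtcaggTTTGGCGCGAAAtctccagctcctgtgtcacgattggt
MCM3 (chr6:52284883-52284942, minus strand): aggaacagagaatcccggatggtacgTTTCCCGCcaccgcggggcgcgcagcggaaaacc
PCNA (chr20:5126648-5126707, minus strand): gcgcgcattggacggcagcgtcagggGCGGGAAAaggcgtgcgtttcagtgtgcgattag
CDT1 (chr16:88803728-88803787, plus strand): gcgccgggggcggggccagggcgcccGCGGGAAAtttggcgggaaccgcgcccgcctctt
GINS2 (chr16:85688955-85689014, minus strand): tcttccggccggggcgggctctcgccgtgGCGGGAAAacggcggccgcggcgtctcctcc
TYMS (chr18:657588-657647, plus strand): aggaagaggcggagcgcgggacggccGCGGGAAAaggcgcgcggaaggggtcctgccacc

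All 42 genes were detected by both platforms, and most took a smaller share of the Nanopore library. Nanopore counts ran from 2 to 68 per gene and Illumina counts from 894 to 65783. Together the genes held 754 Nanopore counts, 0.187% of that library (95% Wilson interval 0.174 to 0.201%), and 802979 Illumina counts, 0.419% (0.418 to 0.420%), a share 2.24 times larger by Illumina. At least 3 Nanopore counts were present for 39 genes and at least 10 for 26. Before the ratio was taken, 1 CPM was added to each level, and ratios are given on the log2 scale. The added CPM makes the difference of rare genes look smaller than it is.

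A two-sided exact binomial test of each gene's counts, adjusted by the Benjamini-Hochberg method over the 12414 genes whose mean level reached 5 CPM, covered 41 of the 42. It left out E2F8. By Illumina, 29 of the 41 were higher at an adjusted p under 0.05, against 27.2% of all tested genes, and by Nanopore 1 was higher, against 20.2%. The other 11 did not pass. With a 4-fold ratio required as well, 3 genes passed on the Illumina side, beside 7.31% of all tested genes, and 0 by Nanopore, against 12.9%. Below 0 lay the ratios of 39 of the 41, beside 63.2% of all tested genes. The median of the 41 was −1.29, beside −0.42 over all tested genes. The range was −2.57 to 0.87. The power of the test grows with abundance, and the median counts of the 41 genes (13 by Nanopore and 13362 by Illumina) were above those of all tested genes (9 and 5404). Among the 6517 protein-coding genes within the same range of Illumina CPM (22.0 to 343), the median ratio was −0.75 and 80.1% of ratios lay below 0. Of these genes, 43.1% were higher by Illumina at the same threshold, and 452 of the 6517 were higher by Nanopore. With the 4-fold ratio, 614 of the 6517 passed on the Illumina side and 66 on the Nanopore side. Beside this set, few or no genes on the Nanopore side is less unusual than beside all tested genes.

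**Figure D1:**
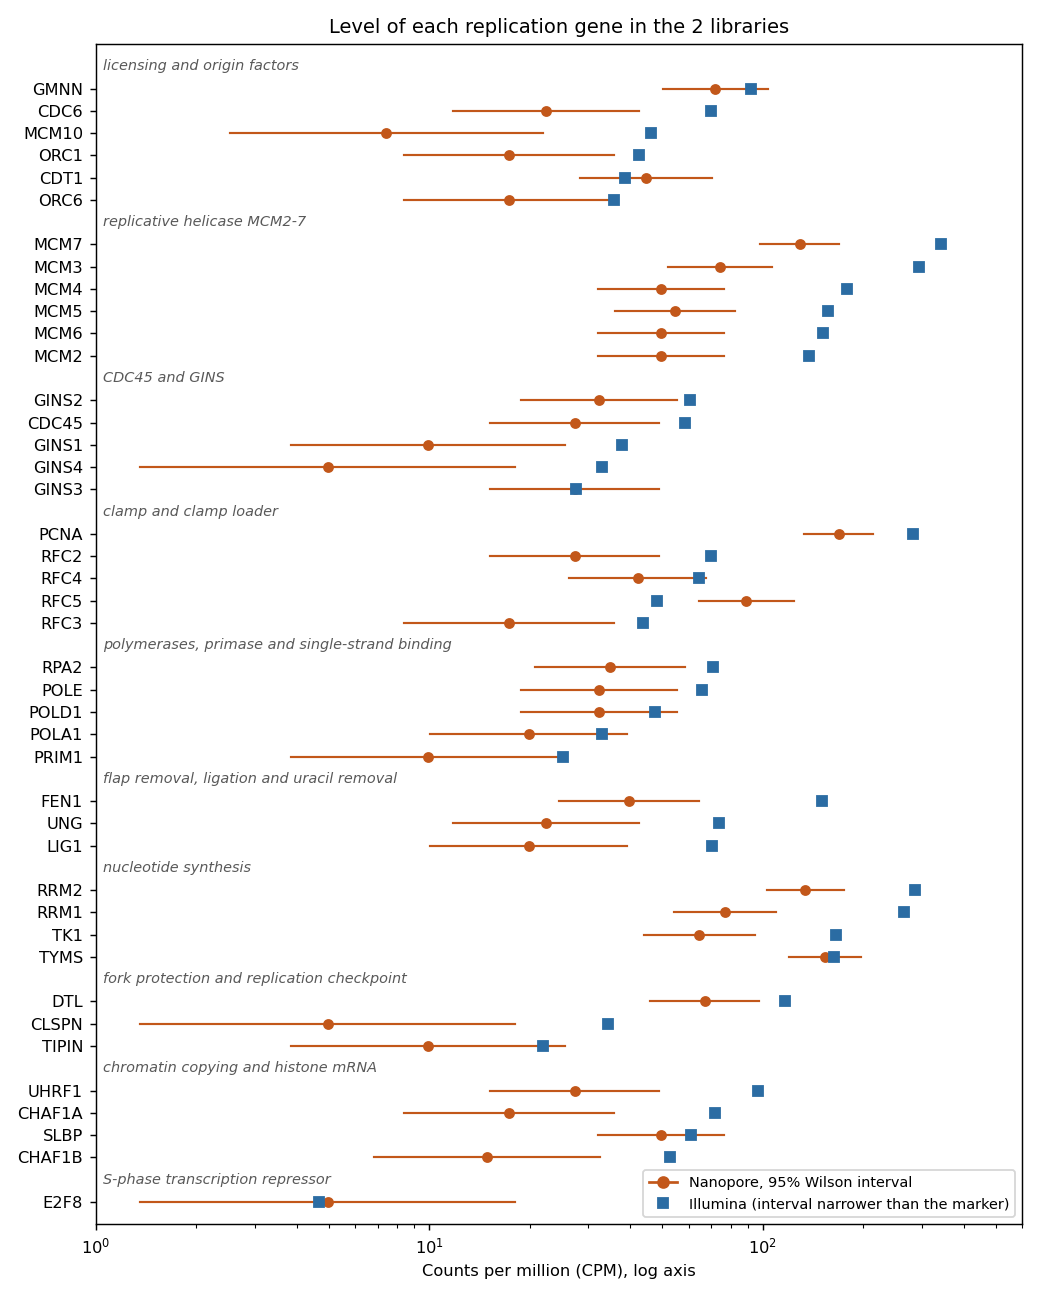
Level of each of the 42 replication genes, grouped by role, on a log axis of CPM. Circles are Nanopore values with 95% Wilson intervals and squares are Illumina values. Most circles lie to the left of their squares, and the exceptions with a circle to the right are CDT1, RFC5 and E2F8.

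Illumina counts grow with transcript length, whereas a direct RNA read stands for 1 molecule, so the ratio was also taken against Illumina TPM, in which counts are divided by length and scaled to a fixed total. With the union of annotated exons as length, 13 of the 41 genes passed on the Illumina side, beside 10.6% of all tested genes, and 4 on the Nanopore side, beside 31.2%. The median ratio of the 41 was −0.74, beside 0.42 over all tested genes, and 31 ratios lay below 0, beside 36.9% of all tested genes. With the mean length of a gene's transcripts, 20 of the 41 were higher by Illumina, beside 15.8% of all tested genes, and 1 by Nanopore, beside 23.7%. With the length of the Ensembl canonical transcript, an alternative chosen after the data were seen, 11 genes were higher by Illumina, against 9.86%, and 3 by Nanopore, against 31.4%. The median was then −0.65, beside 0.48 over all tested genes. On each of these lengths, the median of the replication genes stayed below that of all tested genes, a distance that was not tested.

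The helicase subunits MCM2 to MCM7, which form the ring that unwinds DNA, were all higher by Illumina in CPM. By mean transcript length all 6 stayed higher by Illumina. Over union length MCM3, MCM6 and MCM7 still passed and MCM4 lay at 0.02, and over canonical length MCM3 and MCM7 passed. MCM7 (ENSG00000166508, chromosome 7, 100092233 to 100101940, hg38) had 52 Nanopore counts, 129 CPM (95% Wilson interval 98.3 to 169), and 65783 Illumina counts, 343 CPM. On the log2 scale the ratio was −1.40 (exact binomial adjusted p = 8.34e-16). MCM3 (ENSG00000112118, chromosome 6, 52264014 to 52284881) had 30 and 56208 counts, 74.4 CPM (52.1 to 106) and 293 CPM, a log2 ratio of −1.96 and an exact binomial adjusted p of 1.07e-20. The other subunits lay close together by Nanopore. MCM5 had 22 Nanopore and 30034 Illumina counts, MCM4 had 20 and 34157, MCM6 had 20 and 29038, and MCM2 had 20 and 26281. The Nanopore intervals of these 4 genes overlapped widely (32.1 to 76.6 CPM for the 3 genes with 20 counts), so their order could not be resolved, and the interval of MCM3 overlapped theirs too. MCM7 stood above MCM2, MCM4, MCM5 and MCM6 with an interval apart from theirs, at 2.60 times the level of MCM2 (95% interval 1.53 to 4.60).

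By Illumina TPM over union exonic length, MCM3 was the highest subunit at 218 and MCM4 the lowest at 49.0, a 4.45-fold range. The annotation lists 9852 exonic bases for MCM4, of which its canonical transcript has 4062. Over canonical length, MCM7 was the highest at 216 and MCM2 the lowest at 61.9, a 3.48-fold range, and MCM2, MCM4, MCM5 and MCM6 then lay between 61.9 and 70.2. MCM7 also hosts 3 microRNA genes. MIR25, MIR93 and MIR106B had 0 Nanopore counts each and 200, 38 and 3 Illumina counts. Their main mature products are shown with the seed (bases 2 to 8) in capitals, which miR-93-5p and miR-106b-5p share.
hsa-miR-106b-5p: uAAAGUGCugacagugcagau
hsa-miR-93-5p: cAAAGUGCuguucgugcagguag
hsa-miR-25-3p: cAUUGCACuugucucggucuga

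Counts of host gene reads over these short genes do not measure the mature microRNAs.

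Among the licensing factors, the pair that sets when origins can be loaded showed no difference between platforms past the threshold in CPM or over union length. CDT1 (ENSG00000167513, chromosome 16, 88803789 to 88809258), the loader of the MCM ring, had 18 Nanopore counts, 44.6 CPM (28.2 to 70.6), and 7421 Illumina counts, 38.7 CPM. This gave a log2 ratio of 0.20 (exact binomial adjusted p = 0.73). GMNN (ENSG00000112312, chromosome 6, 24774931 to 24786099), which codes for the CDT1 inhibitor geminin, had 29 counts, 71.9 CPM (50.1 to 103), and 17720 counts, 92.4 CPM, a log2 ratio of −0.36 and an exact binomial adjusted p of 0.299. GMNN was above CDT1 on both platforms, 1.61 times by Nanopore (95% interval 0.865 to 3.08) and 2.66 times by Illumina TPM over union length (2.59 to 2.74), so the Nanopore counts could not resolve the order. By mean transcript length GMNN was higher by Illumina, at −0.83 (exact binomial adjusted p = 0.0029), and CDT1 did not pass. Over canonical length, both passed the threshold, in opposite directions, with log2 ratios of 0.96 for CDT1 and −0.65 for GMNN.

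The remaining licensing genes had few Nanopore counts. ORC1, the largest subunit of the origin recognition complex, had 7 Nanopore and 8139 Illumina counts and was higher by Illumina in CPM. The ORC1 call was lost with median-ratio scaling and on every length, with a ratio of 0.07 by mean transcript length. ORC6, the smallest subunit, had 7 and 6868 and did not pass. CDC6, which works with that complex to load the ring, had 9 and 13395 and was higher by Illumina in CPM and by mean transcript length, but did not pass over union or canonical length. MCM10 (ENSG00000065328, chromosome 10, 13161558 to 13211110), which acts when the helicase is switched on, had 3 Nanopore counts, 7.44 CPM (2.53 to 21.9), and 8855 Illumina counts, 46.2 CPM. It was 6.21 times higher by Illumina (95% interval 2.12 to 30.1), with a log2 ratio of −2.48 and an exact binomial adjusted p of 8.97e-05, and was among the 3 genes past the 4-fold line. Over union and canonical length neither MCM10 nor the other two, GINS4 and CLSPN, passed the threshold. By mean transcript length MCM10 passed at −1.69 (exact binomial adjusted p = 0.0355) and GINS4 at −2.21 (exact binomial adjusted p = 0.00996), and CLSPN did not.

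CDC45 and 3 of the 4 GINS genes, whose products complete the active helicase, were higher by Illumina in CPM. CDC45 had 11 Nanopore and 11199 Illumina counts. GINS2 had 13 Nanopore counts, 32.2 CPM (18.8 to 55.2), and 11633 Illumina counts, 60.7 CPM, a log2 ratio of −0.89 and an exact binomial adjusted p of 0.0375. The GINS2 call was lost under both other scalings, with totals without mitochondrially encoded genes and on every length, with exact binomial adjusted p from 0.063 to 0.963. GINS1 had 4 and 7266 counts and passed on no length, and CDC45 lost its call over canonical length. GINS4 (ENSG00000147536, chromosome 8, 41529218 to 41545030) had 2 Nanopore counts, 4.96 CPM (1.36 to 18.1), and 6331 Illumina counts, 33.0 CPM. It was 6.66 times higher by Illumina (95% interval 1.84 to 55.0), with a log2 ratio of −2.51 and an exact binomial adjusted p of 0.00117. GINS3 had 11 Nanopore and 5277 Illumina counts, 27.3 and 27.5 CPM, and did not pass. The products of the 4 GINS genes form a complex with 1 copy of each. Their Nanopore levels spanned 6.50-fold from GINS4 to GINS2 (95% interval 1.47 to 59.3) and their Illumina TPM over union length 3.99-fold from GINS1 to GINS2.

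PCNA, the sliding clamp, was the highest of the 42 genes by Nanopore CPM and by Illumina TPM. PCNA (ENSG00000132646, chromosome 20, 5114953 to 5126626) had 68 Nanopore counts, 169 CPM (133 to 214), and 54077 Illumina counts, 282 CPM, or 544 TPM over union length. Against CPM the log2 ratio was −0.74 (exact binomial adjusted p = 2.38e-05), and against TPM over union length −1.68 (exact binomial adjusted p = 2.4e-31).

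The clamp loader genes RFC2 to RFC5 did not move together. RFC2 had 11 Nanopore and 13362 Illumina counts and RFC3 had 7 and 8395, and both were higher by Illumina in CPM. RFC3 did not pass by mean transcript or canonical length. RFC4 had 17 and 12323 and did not pass in CPM or over union length. It was higher by Illumina by mean transcript length, at −1.09 (exact binomial adjusted p = 0.00173), and over canonical length, at −0.78 (exact binomial adjusted p = 0.0467). RFC5 (ENSG00000111445, chromosome 12, 118013588 to 118033130) had 36 Nanopore counts, 89.3 CPM (64.5 to 124), and 9264 Illumina counts, 48.3 CPM. The log2 ratio came to 0.87 (exact binomial adjusted p = 0.00321), and it was the single gene of the 41 that was higher by Nanopore. By Nanopore, RFC5 stood 5.14 times above RFC3 (95% interval 2.26 to 13.7). By Illumina TPM over union length RFC5 was at 40.3, RFC3 at 41.5 and RFC2, the highest, at 85.4. RFC3 was the lowest of the 4 by Illumina TPM over mean transcript length, at 36.0 beside 55.2 for RFC5, and over canonical length, at 29.4 beside 35.6. The highest gene was RFC4 on both of these lengths, so RFC5 was highest by Nanopore and on no Illumina scale. The 3′ end of RFC5 shares 186 exonic bases with WSB2, a gene on the opposite strand, which also had 36 Nanopore counts and had 20963 Illumina counts.

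**Figure D2:**
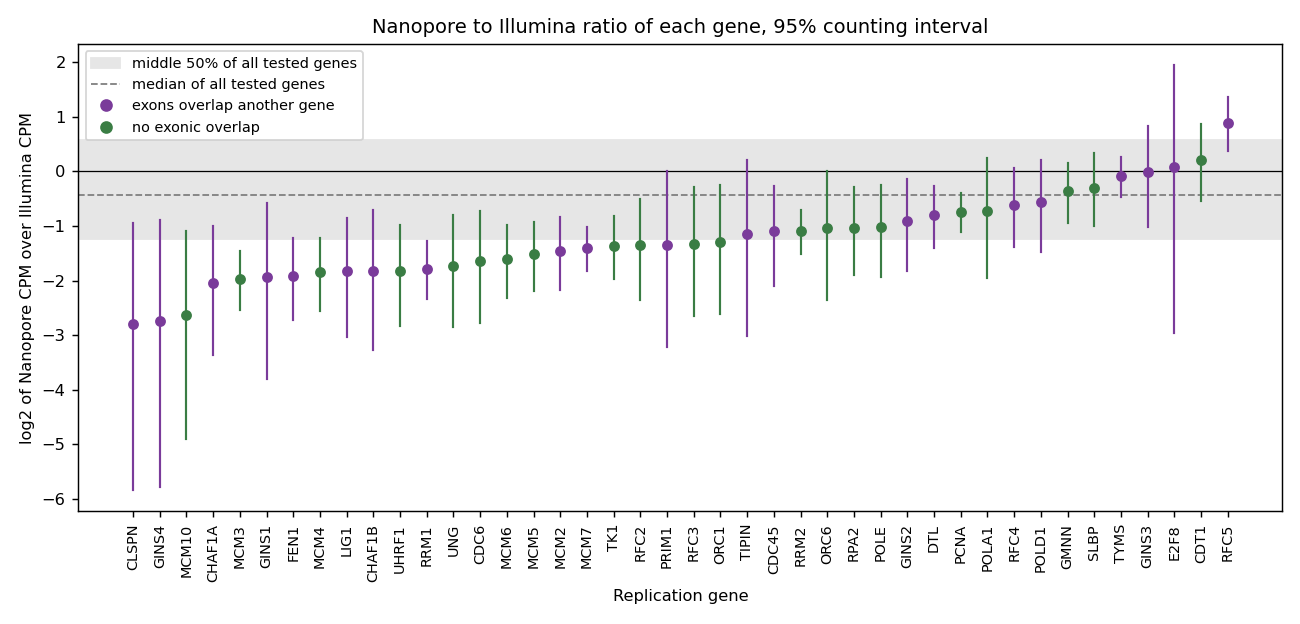
Log2 of Nanopore CPM over Illumina CPM for each of the 42 genes, without the added 1, in rising order, with 95% counting intervals. Colour marks genes whose exons overlap another gene, the band is the middle 50% of all tested genes and the dashed line their median. RFC5 is the only gene whose interval lies wholly above 0.

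Equal counts of overlapping genes were seen for other members too. Exons of 21 of the 42 genes share bases with an exon of another annotated gene. For 5 of them, each with at least 5 Nanopore counts, the partner's Nanopore count was within 1 of the member's, a listing made after the values were seen. TYMS had 62 Nanopore counts and its opposite-strand partner ENOSF1 61, with 31310 and 27162 by Illumina. MCM2 had 20 and an opposite-strand lncRNA gene (ENSG00000285600) 19, with 26281 and 12395 by Illumina. POLD1 and a same-strand gene (ENSG00000142539) had 13 each, with 9107 and 784 by Illumina. LIG1 and an opposite-strand lncRNA gene (ENSG00000269534) had 8 each, with 13478 and 18 by Illumina. RRM1, outside that tolerance, had 31 Nanopore counts and its opposite-strand partner RRM1-AS1 26, with 50859 and 1 by Illumina. CHAF1A, also outside it, had 7 and an opposite-strand lncRNA gene (ENSG00000267255) 5, with 13772 and 21 by Illumina. A second opposite-strand partner of TYMS, TYMSOS, had 42 Nanopore and 310 Illumina counts. Other pairs stood further apart, such as MCM7 with 52 Nanopore counts and AP4M1 with 15. How reads over several genes were counted is not given in the sources used here. For the 21 genes with exonic overlap, RFC5, RRM1, CHAF1A, FEN1 and PRIM1 included, the Nanopore counts therefore cannot be assigned to 1 gene. The median ratio was −1.33 for the 20 tested genes with exonic overlap and −1.29 for the 21 without, of which 16 were higher by Illumina and 0 by Nanopore. Among the 4502 tested protein-coding genes without exonic overlap, the median was −0.72, and 33.6% were higher by Illumina and 7.13% by Nanopore.

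The catalytic polymerase genes POLE, POLA1 and POLD1 had ratios below 0 in CPM and above 0 on every length, whereas PRIM1 and RPA2 stayed below 0. POLE, the catalytic subunit of the leading-strand polymerase, had 13 Nanopore counts, 32.2 CPM (18.8 to 55.2), and 12558 Illumina counts, 65.5 CPM. Against CPM the log2 ratio was −1.0 (exact binomial adjusted p = 0.0157), and against TPM over union length 1.11 (exact binomial adjusted p = 0.0337). POLE therefore passed the threshold in both directions, depending on the division by length. POLA1 (ENSG00000101868, chromosome X, 24693873 to 24996986), the catalytic subunit of the polymerase that starts new strands, had 8 Nanopore counts, 19.8 CPM (10.1 to 39.2), and 6320 Illumina counts, 33.0 CPM. Against CPM the log2 ratio was −0.70 (exact binomial adjusted p = 0.272), and against TPM over union length 1.63 (exact binomial adjusted p = 0.0151). At 5.74 TPM it was the second lowest of the 42 genes, over 15547 exonic bases, of which its canonical transcript has 5487. POLD1, of the lagging-strand polymerase, had 13 and 9107 counts, and PRIM1, the primase subunit that makes RNA primers, had 4 and 4840, and neither passed. RPA2, a subunit of the protein that coats single-stranded DNA, had 14 and 13616 counts and was higher by Illumina.

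The genes for flap removal, ligation and uracil removal were all higher by Illumina in CPM. FEN1, which cuts the flaps of Okazaki fragments, had 16 Nanopore counts, 39.7 CPM (24.4 to 64.5), and 28867 Illumina counts, 151 CPM. On the log2 scale the ratio was −1.90 (exact binomial adjusted p = 1.56e-10). It stayed higher by Illumina over union length, at −2.20, and over canonical length, at −1.52. LIG1, which joins the fragments, had 8 and 13478 counts and a ratio above 0, at 0.23, over union length, and it passed on no length. UNG, which removes uracil from DNA, had 9 and 14183 and passed over canonical length but not over the other lengths.

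Of the genes for nucleotide synthesis, RRM1, RRM2 and TK1 were higher by Illumina in CPM and TYMS did not pass. Over union length RRM2 was instead higher by Nanopore, at a log2 ratio of 0.65 (exact binomial adjusted p = 0.00643). By mean transcript length RRM2 stayed higher by Illumina, at −0.70 (exact binomial adjusted p = 0.000621), and over canonical length it lay at −0.02 and did not pass. RRM1 and RRM2 code for the large and small subunits of ribonucleotide reductase, which makes deoxyribonucleotides. RRM2 (ENSG00000171848, chromosome 2, 10120698 to 10211725) had 54 Nanopore counts, 134 CPM (103 to 175), and 54886 Illumina counts, 286 CPM, a log2 ratio of −1.09 and an exact binomial adjusted p of 2.1e-09. RRM1 (ENSG00000167325, chromosome 11, 4094707 to 4138932) had 31 counts, 76.9 CPM (54.2 to 109), and 50859 counts, 265 CPM, a log2 ratio of −1.77 and an exact binomial adjusted p of 1.2e-16. RRM2 was 1.74 times above RRM1 by Nanopore (95% interval 1.10 to 2.80), with the doubt given above about the RRM1 count. By Illumina TPM over union length RRM1 was above RRM2, at 170 against 84.7, and over canonical length they were at 131 and 136, so the Illumina order depended on the length used.

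TYMS, which makes thymidylate, had 62 Nanopore counts, 154 CPM (120 to 197), and 31310 Illumina counts, 163 CPM, a log2 ratio of −0.09 and an exact binomial adjusted p of 0.806. It ranked second of the 42 by Nanopore, with the shared counts given above. TK1 (ENSG00000167900, chromosome 17, 78174091 to 78187233), the thymidine kinase of the salvage route, had 26 counts, 64.5 CPM (44 to 94.5), and 31755 counts, 166 CPM. This gave a log2 ratio of −1.35 (exact binomial adjusted p = 1.41e-07). It ranked second by Illumina TPM over union length, at 243, and 10 of 42 by Nanopore.

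**Figure D3:**
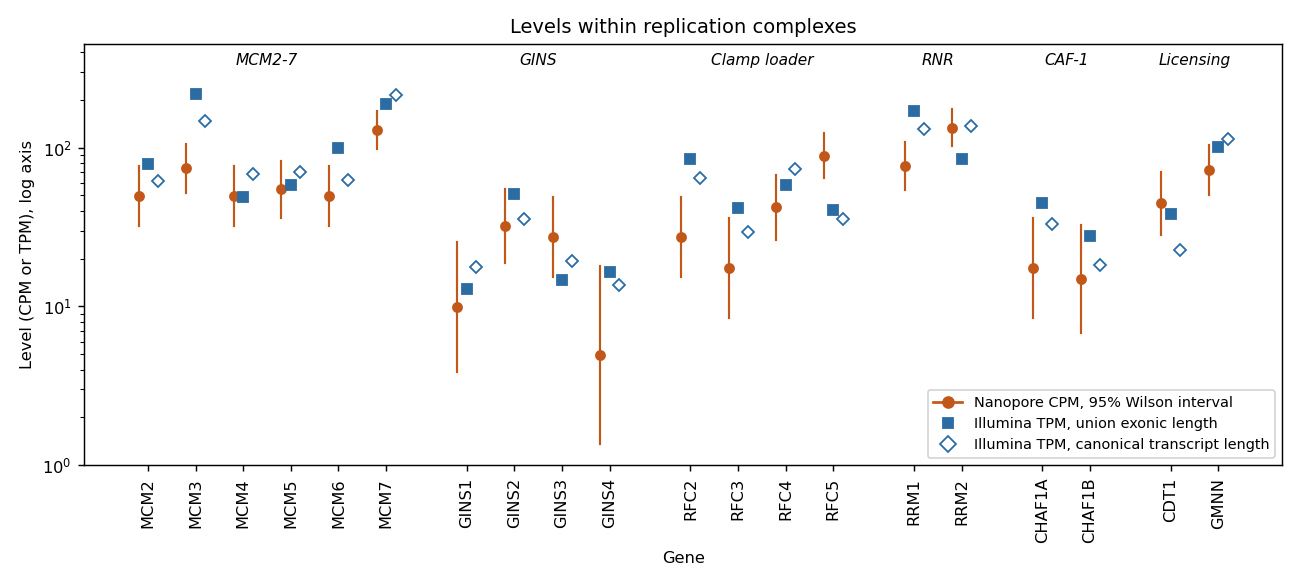
Levels within 6 complexes or pairs on a log axis: Nanopore CPM with 95% Wilson intervals (circles), Illumina TPM over union exonic length (filled squares) and over canonical transcript length (open diamonds). RNR is ribonucleotide reductase and CAF-1 the chromatin assembly factor. The squares and diamonds of MCM4 and RRM2 show how the length used changes the order within a complex. The circle of RFC5, beside its square and diamond, shows a change of order with the platform.

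Among the fork protection and checkpoint genes, CLSPN had the lowest ratio of all 41. CLSPN (ENSG00000092853, chromosome 1, 35720218 to 35769978), which codes for claspin, an adaptor that passes the replication stress signal to the kinase CHK1, had 2 Nanopore counts, 4.96 CPM (1.36 to 18.1), and 6599 Illumina counts, 34.4 CPM. It was 6.94 times higher by Illumina (95% interval 1.92 to 57.3), with a log2 ratio of −2.57 and an exact binomial adjusted p of 0.000751. Over its canonical transcript of 8512 bases, the longest of the 42, the ratio was −0.29 and did not pass. DTL, the substrate receptor of the ubiquitin ligase that removes CDT1 in S phase, had 27 and 22406 counts and was higher by Illumina in CPM, with ratios of 0.06 and 0.69 over union and canonical length that did not pass. TIPIN, a partner of TIMELESS in the fork protection complex, had 4 and 4215 and did not pass.

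The chromatin genes were higher by Illumina in CPM apart from SLBP. Over union length CHAF1A passed, CHAF1B and UHRF1 did not, and SLBP was higher by Illumina at −0.81 (exact binomial adjusted p = 0.0204). By mean transcript length CHAF1A was higher by Illumina, at −2.20 (exact binomial adjusted p = 4.08e-07), and CHAF1B, UHRF1 and SLBP did not pass. Over canonical length 0 of the 4 passed. CHAF1A and CHAF1B code for subunits of the factor that places histones on new DNA. CHAF1A had 7 Nanopore and 13772 Illumina counts, with a log2 ratio of −1.99 just short of the 4-fold line, and CHAF1B had 6 and 10101. Their Nanopore levels could not be ordered (CHAF1A over CHAF1B 1.17, 95% interval 0.336 to 4.20), and by Illumina TPM over union length CHAF1A was 1.61 times higher (1.57 to 1.65). UHRF1, which reads hemimethylated DNA behind the fork, had 11 and 18515 counts. SLBP, which binds the stem-loop of replication-dependent histone mRNAs, had 20 and 11672 counts, 49.6 and 60.9 CPM, and did not pass in CPM.

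E2F8 (ENSG00000129173, chromosome 11, 19224063 to 19241620), an atypical E2F that represses S-phase genes, was the lowest of the 42 by Illumina. It had 894 Illumina counts, 4.66 CPM or 3.05 TPM over union length, and 2 Nanopore counts, 4.96 CPM (1.36 to 18.1). The Illumina over Nanopore ratio was 0.940 (95% interval 0.259 to 7.77), and a difference could not be detected with so few counts.

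Across the 42 genes, the platforms ordered the levels in broadly the same way. Spearman's rho between Nanopore CPM and Illumina CPM was 0.80, and 0.81 and 0.83 against Illumina TPM over union and canonical length. Over 12350 tested genes rho was 0.55, 0.56 and 0.59 in the same order. These values are across genes of the same 2 libraries, which are not independent replicates, and share the wide spread of abundance. The ratio fell with canonical transcript length before division by length (rho −0.46 over 41 genes, beside −0.48 over 12350 tested genes) and rose with it afterwards (0.44, beside 0.20). In 3 groups by canonical length, the median log2 ratio against CPM was −1.04 for the 14 genes of 1263 to 2048 bases, −1.35 for the 14 of 2104 to 3434 bases and −1.60 for the 13 of 3436 to 8512 bases. Protein-coding genes tested in the same length ranges had medians of −0.25, −0.55 and −0.89. After division by canonical length the replication genes were at −0.96, −0.52 and −0.29, and the protein-coding genes at −0.15, 0.21 and 0.73. In each of the 3 ranges the replication genes thus had the lower median, by either scale.

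**Figure D4:**
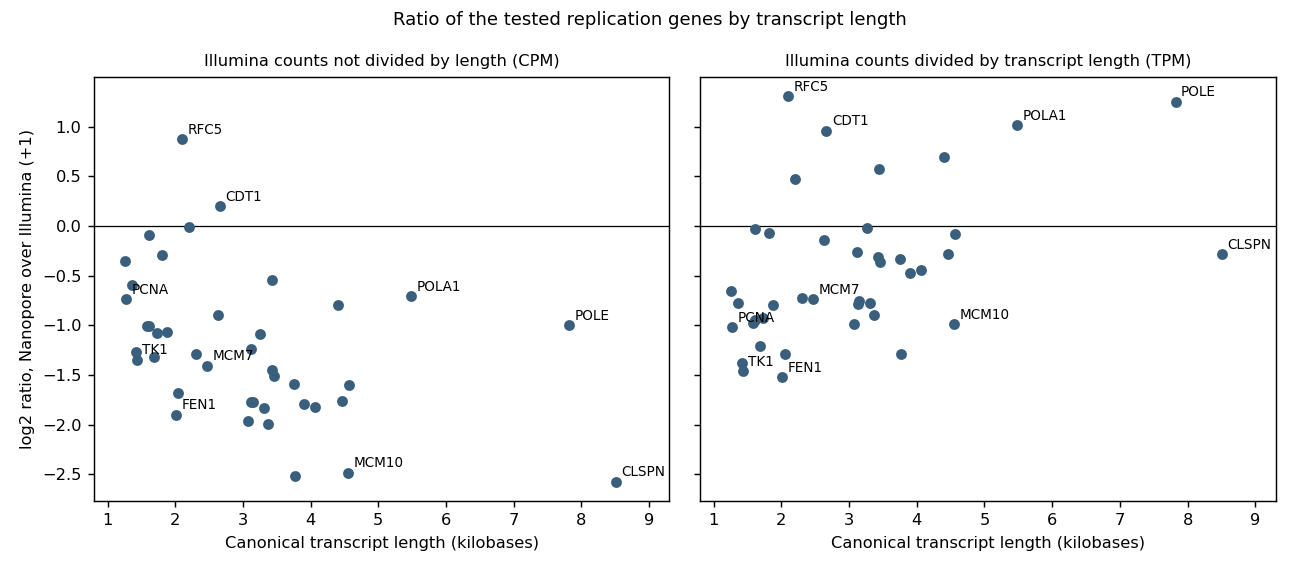
Log2 ratio of the 41 tested genes against canonical transcript length in kilobases, with Illumina counts not divided by length (left) and divided by canonical length (right). Points fall with length on the left and rise on the right, and POLE and POLA1 lie below 0 on the left and above 0 on the right.

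Other genes of replication were set beside these from a list of 53. By Nanopore 52 were detected, and 52 passed the filter on low values. Of these, 20 were higher by Illumina, or 38.5%, and 2 by Nanopore, beside 27.2% and 20.2% of all tested genes. The median ratio was −0.78 against CPM and 0.07 against TPM over union length. The genes with the highest ratios were DONSON, which helps to assemble the helicase, and DUT, which clears dUTP. DONSON, at a log2 ratio of 1.31, had 29 Nanopore and 5429 Illumina counts, and DUT, at 1.07, had 98 and 22085. The lowest ratios were those of TCF19 and ORC5. TCF19 had 2 Nanopore and 12054 Illumina counts, 12.7 times higher by Illumina (95% interval 3.51 to 105). ORC5, a subunit of the origin recognition complex, had 1 and 4660 counts, 9.80 times higher by Illumina (1.76 to 387). SAMHD1, which breaks down deoxyribonucleotides, had 0 Nanopore counts, which allows up to 7.44 CPM, and 1366 Illumina counts, 7.12 CPM. Exons of DONSON, DUT, TCF19 and SAMHD1 share bases with another annotated gene, and those of ORC5 do not. The doubt given above about overlapping genes therefore covers the Nanopore counts of DONSON and DUT.

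Genes that act in mitosis, a list of 30, were all detected by Nanopore. By Illumina 22 were higher, or 73.3%, beside 70.7% of the 41 replication genes and 27.2% of all tested genes. By Nanopore 0 were higher, beside 20.2% of all tested genes. The power of the test grows with abundance, so these shares are not on a like footing. Median counts of the mitosis genes were 24.5 by Nanopore and 23820 by Illumina, beside 13 and 13362 for the replication genes. The median ratio of the mitosis genes was −0.82 against CPM and −0.24 against TPM over union length, beside −1.29 and −0.74 for the replication genes. Their shares of the libraries were 0.229% by Nanopore and 0.447% by Illumina. The differences between these lists were not tested.

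**Figure D5:**
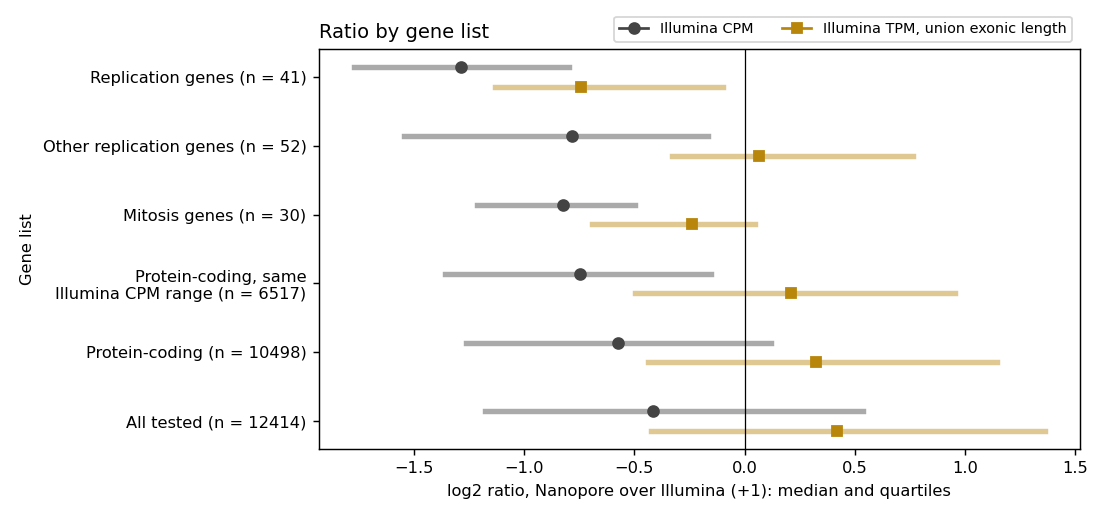
Median (points) and quartiles (bars) of the log2 ratio of Nanopore over Illumina for the 41 tested replication genes, the other replication genes, the mitosis genes and 3 backgrounds, with Illumina as CPM (circles) and as TPM over union exonic length (squares). The replication genes have the lowest median of the lists shown on either scale, −1.29 and −0.74.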

How the data were processed

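The authors deposited whole-number counts per Ensembl gene, without normalization, in 1 table per library, and each library formed its own group by its title in the labels. The submitters' processing notes name minimap2 2.11-r797, HISAT2 2.1.0, featureCounts and the build hg38, without roles. Strand setting, treatment of reads over several genes and annotation release are not given in the sources used here.

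Counts were scaled to each library's total (CPM). Of 58735 identifiers, 58207 matched GENCODE release 44 (hg38), which gave names, positions and lengths. With 1 library per platform no dispersion can be estimated, so no count model was fitted. The exact conditional binomial test (scipy 1.17.1) doubled the smaller tail and was tested on simulated data. The simulated counts held counting error and set fold changes only, so they do not cover other differences between the platforms. TMM scaling used edgeR 4.0.16. Wilson intervals are for single levels and Clopper-Pearson intervals for ratios of counts, and 3 counts were taken as the floor. Illumina reads include PCR copies of a molecule, so these bounds describe counting error alone. Every member is named. Full statistics were set for genes past the 4-fold line, the ends of each complex and the 3 highest and lowest by Illumina TPM. Of the other replication genes, those named have the 2 highest and 2 lowest ratios or no Nanopore count. The members and lists were chosen with earlier results of these data known. A planned search for a protein motif was not run.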

Additional observations from a re-analysis of the deposited data

How the results depend on the processing

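With 1 library per platform, leaving out a replicate was not possible. No paired analysis was possible because each platform has a single library. Depth limits the Nanopore side: at least 10 counts were present for 26 of the 42 genes, and at least 3 for 39. The pseudocount enters the ratios and not the binomial test, so it can change neither a call at adjusted p nor a sign. Of the 41 tested ratios, 39 lay below 0 in CPM, beside 63.2% of all tested genes. With TMM scaling and with median-ratio scaling 37 lay below 0, and 38 with totals without mitochondrially encoded genes. The share of all tested genes below 0 was not counted for these settings. TMM and median-ratio scaling raised the median of all tested genes by 0.086 and 0.12. Below 0 lay 31, 34 and 34 with division by union, mean transcript and canonical length, beside 36.9%, 47.8% and 34.9% of all tested genes. These divisions raised the median of all tested genes by 0.84, 0.49 and 0.90. Division by canonical length and the restriction to genes without exonic overlap were chosen after the data were seen.

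The count of genes higher by Illumina was 29, beside 27.2% of all tested genes. It became 13 by union length (10.6%), 20 by mean transcript length (15.8%) and 11 by canonical length (9.86%), with the share of all tested genes in brackets. Of the 15 tested genes without gene-body overlap it was 11. Of the 21 without exonic overlap it was 16, beside 33.6% of tested protein-coding genes without exonic overlap. The count higher by Nanopore was 1 (20.2%), and became 4 (31.2%), 1 (23.7%), 3 (31.4%), 0 and 0 (7.13%) in the same order. The count 4-fold higher by Illumina was 3, beside 7.31% of all tested genes. It became 1 by union length, 0 by canonical length, 1 with a pseudocount of 5 CPM and 1 with a minimum of 20 CPM. Without gene-body overlap it was 1, without exonic overlap 1, and at a 2-fold line 26. The share of all tested genes was not counted for these changed 4-fold settings, the 2-fold line or genes without gene-body overlap. Those counts therefore cannot be read as high or low. The median ratio of −1.29 became −1.16 with median-ratio scaling, −1.13 with a pseudocount of 5 CPM, and −0.74, −1.0 and −0.65 by union, mean transcript and canonical length.

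Directions turned for some genes. GINS3 became 0.073 with TMM, 0.11 with median-ratio scaling, 0.054 without mitochondrial totals, and 0.86 and 0.47 by union and canonical length. TYMS became 0.0014 with TMM and 0.040 with median-ratio scaling. By union, mean transcript and canonical length, POLA1 became 1.63, 0.41 and 1.02, POLD1 0.30, 0.55 and 0.57, POLE 1.11, 0.57 and 1.25, and DTL 0.058, 0.19 and 0.69. By union length alone MCM4 became 0.018, LIG1 0.23 and RRM2 0.65, and by mean transcript length alone ORC1 became 0.075.

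The fold from the lowest to the highest Illumina level, by union length, became by mean transcript length, by CPM and by canonical length 2.15, 2.50 and 3.48 for MCM2 to MCM7 (4.45 by union length), 2.90, 2.20 and 2.64 for GINS1 to GINS4 (3.99), 2.53, 1.59 and 2.48 for RFC2 to RFC5 (2.12), 1.10, 1.08 and 1.04 for RRM1 and RRM2 (2.00), 2.70, 1.36 and 1.81 for CHAF1A and CHAF1B (1.61), and 3.67, 2.39 and 5.04 for CDT1 and GMNN (2.66). These changes follow from the lengths used.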
